A study of Arabidopsis thaliana with 6 samples.

Results

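The DREB2 factors and their regulators were followed here as 6 genes of Arabidopsis thaliana: the transcription factor genes DREB2A (AT5G05410), DREB2B (AT3G11020) and DREB2C (AT2G40340), the ubiquitin ligase genes DRIP1 (AT1G06770) and DRIP2 (AT2G30580), and the partner gene NF-YC10 (AT1G07980). They were picked by locus as known parts of the pathway, under a rule that uses no measured value though earlier results of these data were known, and are 6 genes beside the 20310 that have a probe set of their own on the array. A probe set is a group of short probes read together as 1 value, mostly for 1 gene but in some cases for several related genes. DREB2A, DREB2B, DRIP1, DRIP2 and NF-YC10 each had 1 probe set of their own. DREB2C had none: its only probe set also matches DREB2H (AT2G40350), so its values belong to these relatives together. DREB2A lies on chromosome 5, DREB2B on chromosome 3, DREB2C and DRIP2 on chromosome 2, and DRIP1 and NF-YC10 on chromosome 1 of assembly TAIR10.1.

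The heat group held 3 samples of Col-0 seedlings given 37 °C for 30 min under light, and the control group held 3 Col-0 samples without that treatment under light, with growth at 23 °C in long days on solid Murashige & Skoog medium. No mutant or transgene was involved. Each sample was hybridised to 1 Affymetrix array, and levels are on the log2 scale, so that a difference of 1 is a doubling. The labels give an age of 10, 11 and 12 days to control samples 1, 2 and 3 and of 13, 14 and 15 days to heat samples 1, 2 and 3, while the series text gives 10 days for all, so labelled age and treatment run together.

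DREB2 proteins carry an AP2/ERF domain and bind the dehydration-responsive element, a short promoter sequence found in many drought and heat genes. In unstressed plants the DREB2A protein is marked for breakdown by the RING-type ubiquitin ligases DRIP1 and DRIP2, so its amount is set by protein stability as well as by transcription. In heat, the class A1 heat shock factors switch on the DREB2A gene, NF-YC10 joins DREB2A in a complex with other nuclear factor Y subunits, and DREB2A in turn activates HSFA3, a further heat shock factor gene. The arrays measured RNA only, so neither protein amount nor ubiquitination was observed.

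The labelled material and treatment were checked against genes of known behaviour. Of 3 green tissue markers none passed the test, with mean levels of 13.63 to 13.69 in heat arrays and 13.71 to 13.81 in control arrays. All 3 root markers were lower after heat, with mean levels of 5.96 to 6.30 in heat arrays and 7.68 to 8.19 in control arrays, and the root tissue regulator SCR was at 4.36, 4.22 and 4.36 after heat against 6.24, 6.18 and 5.79 in control. Mean levels of seed markers were at most 3.64 and those of pollen markers at most 3.47, on arrays whose medians lay between 4.39 and 4.53. Of these marker genes RBCS1A, LHCB1.4 and BGLU21 were read by probe sets shared with relatives. The disaggregase gene HSP101 was at 13.69, 13.83 and 13.71 in heat arrays 1, 2 and 3, against 4.82, 4.87 and 8.22 in control arrays 1, 2 and 3, and so control array 3 stood apart for this gene. The small heat shock protein gene HSP17.7-CII was at 13.77, 13.75 and 13.83 after heat against 3.74, 3.55 and 4.78 in control, again highest in control array 3. HSP70B did not set control array 3 apart, with 13.65, 13.70 and 13.67 after heat against 4.62, 4.61 and 4.55 in control. In whole seedlings, fewer cells of a type and less RNA per cell cannot be told apart, and the part of the lower root markers in the results below was not tested.

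DREB2A and DREB2B, which encode the main stress-activated factors of the family, rose after heat. None of the 6 genes was called lower with the values as deposited. By limma at an adjusted p under 0.05, 2 of the 6 genes were higher and 0 lower, while 7.82% of all 22746 probe sets were higher and 11.5% lower. At an unadjusted p under 0.05 the counts were 3 higher and 0 lower, the third being the probe set shared by DREB2C and DREB2H, while 14.1% of all probe sets were higher and 18.1% lower at that threshold. The genes for the ligases and for NF-YC10 did not pass in either direction, and their intervals held 0.

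**Figure D1:**
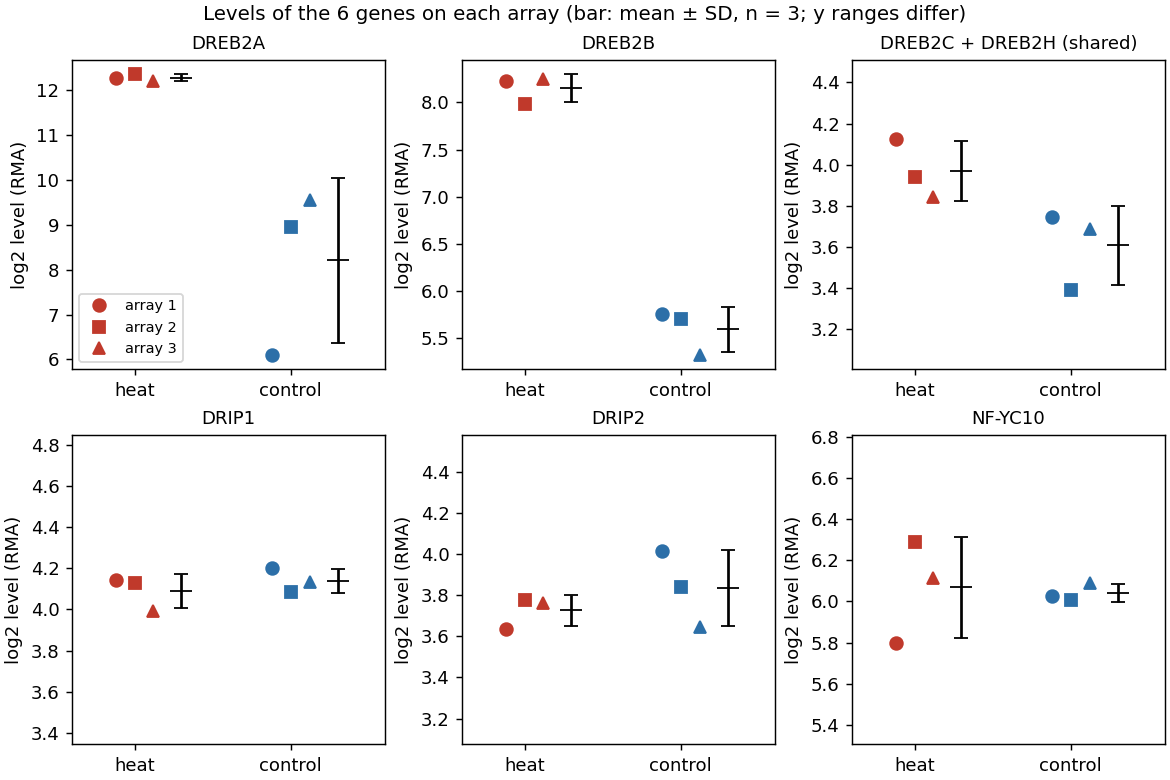
Log2 level of each of the 6 genes on every array, heat to the left of control, with circles, squares and triangles for arrays 1, 2 and 3 and bars for the mean ± SD of 3 arrays. DREB2A was at 12.20 to 12.35 on the heat arrays and at 6.10 to 9.55 on the control arrays; DREB2B also separated the groups, and DRIP1, DRIP2 and NF-YC10 overlapped.

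DREB2A had log2 levels of 12.26, 12.35 and 12.20 in heat arrays 1, 2 and 3, against 6.10, 8.95 and 9.55 in control arrays 1, 2 and 3. The heat arrays lay close together, the control arrays did not, and the groups did not overlap. The lowest heat array stood 2.64 above the highest control array. Means were 12.27 ± 0.08 after heat and 8.20 ± 1.84 in control (SD, n = 3 each). The change was 4.07 ± 0.83 (log2, ± SE; limma adjusted p = 0.0173), a 16.8-fold rise with a 95% interval of 4.25-fold to 66.3-fold. An exact permutation of the 6 arrays gave p = 0.1, the smallest that 3 against 3 arrays allow.

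The width of that interval came from the control arrays. Control array 1 was 2.85 below control array 2 and 3.45 below control array 3, and only 0.444% of probe sets had a control SD as large as that of DREB2A or larger. On the heat arrays the picture was the opposite, with 70.1% of probe sets varying as much or more. Against control array 1 alone the heat mean was 72.0-fold higher, against control array 2 it was 9.98-fold higher and against control array 3 it was 6.58-fold higher. In the authors' deposited table the linear ratio of control over heat, taken between arrays of the same replicate number and so below 1 where heat is higher, was 0.0140, 0.0947 and 0.160.

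How large the rise was therefore depended on which control arrays were used, while its direction did not. These values do not show which control array was the unusual one. Without control replicate 1 the change was 3.02 (adjusted p = 0.000257), and without control replicate 3 it was 4.74 (adjusted p = 0.00703). The call was lost without heat replicate 1, 2 or 3 (adjusted p = 0.0661, 0.0560 and 0.0641), with changes of 4.03 to 4.11. It was also lost with the labelled age as a covariate, where the change was 1.53 (adjusted p = 0.696), and when the spread of this probe set alone set the error (adjusted p = 0.104).

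DREB2B, a relative of DREB2A whose gene is likewise induced by stress, had levels of 8.22, 7.99 and 8.25 in heat arrays 1, 2 and 3, against 5.76, 5.71 and 5.32 in control arrays 1, 2 and 3. Arrays of each group lay within 0.44 of each other, and the lowest heat array stood 2.23 above the highest control array. The means were 8.15 ± 0.15 after heat and 5.60 ± 0.24 in control (SD, n = 3 each). The rise was 2.56 ± 0.14 (log2, ± SE; limma adjusted p = 7.51e-05), or 5.88-fold with a 95% interval of 4.65-fold to 7.45-fold. In all 17 alternative settings DREB2B was called higher, with changes of 2.05 to 2.86.

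**Figure D2:**
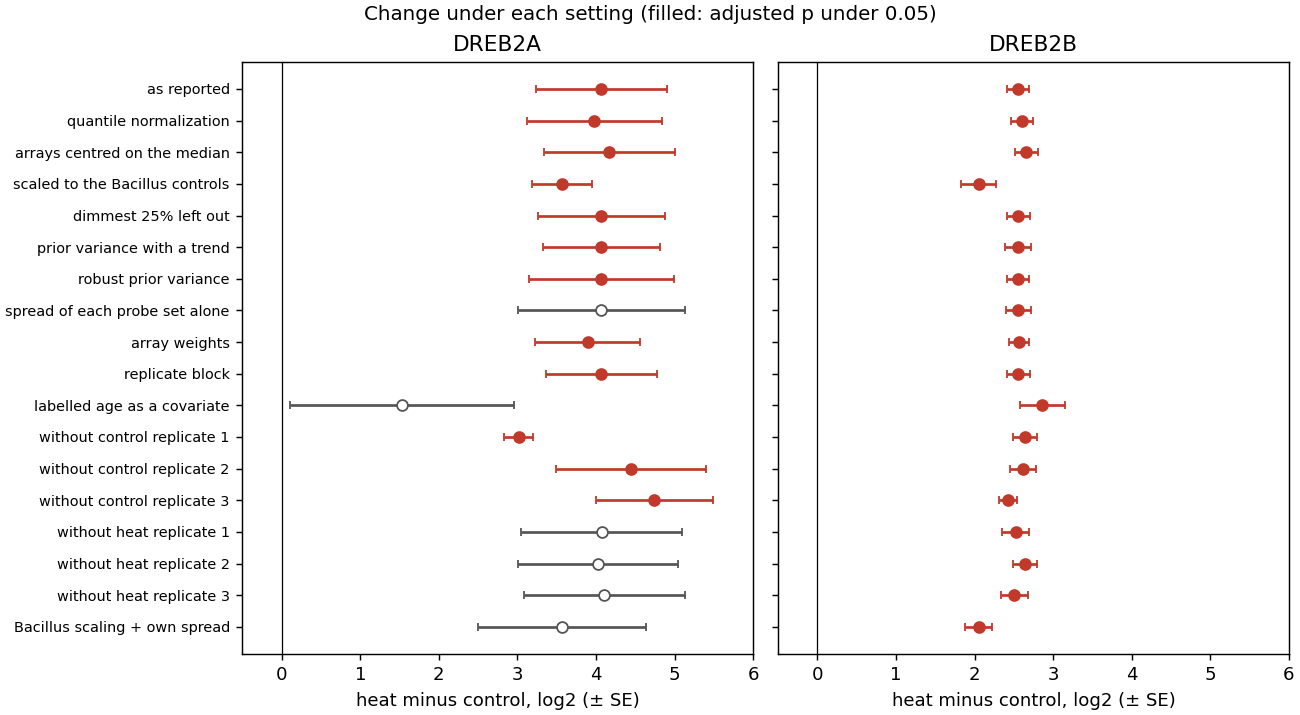
Heat minus control change on the log2 scale, ± SE, for DREB2A (left panel) and DREB2B (right panel), as reported and under each of 17 other settings, with filled points where the adjusted p was under 0.05. The points for DREB2A run from 1.53 to 4.74 and 6 of the alternatives are open; those for DREB2B run from 2.05 to 2.86 and all are filled.

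The probe set shared by DREB2C, a factor known to activate HSFA3 in heat, and its neighbouring relative DREB2H had levels of 4.13, 3.94 and 3.84 in heat arrays 1, 2 and 3, against 3.75, 3.39 and 3.69 in control arrays 1, 2 and 3. All heat arrays lay above all control arrays, though the highest control array and the lowest heat array were close. The difference was 0.36 ± 0.13 (95% interval 0.06 to 0.66) and did not pass (limma adjusted p = 0.10). It passed after each array was centred on its median (0.46, adjusted p = 0.0397), and it was -0.14 once the arrays were scaled to spiked-in Bacillus RNAs. Groups without overlap were found for this probe set, DREB2A and DREB2B, 3 of 6, beside 38.8% of all probe sets. Both groups were below the array medians for this probe set, and the share of background signal in such values was not measured.

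Whether the relatives changed by unequal amounts was tested on the difference between their log2 values within each array, over 4 pairs. The change of DREB2A exceeded that of DREB2B by 1.51 ± 1.17 (± SE; exact permutation p = 0.3, adjusted p = 0.4), with groups that overlapped, and by 0.38 without control replicate 1. Their changes were thus not told apart by these arrays. DREB2A exceeded the shared probe set of DREB2C and DREB2H by 3.71 ± 1.13, and DREB2B exceeded it by 2.20 ± 0.23. In these pairs the groups did not overlap, and the exact permutation p of 0.1 (adjusted p = 0.2) was the smallest possible. DRIP1 and DRIP2 differed in their changes by 0.06 ± 0.12 (exact permutation p = 0.6, adjusted p = 0.6), a difference whose sign turned when heat replicate 1 or control replicate 1 was left out.

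DRIP1 had levels of 4.14, 4.13 and 3.99 in heat arrays 1, 2 and 3, against 4.20, 4.09 and 4.13 in control arrays 1, 2 and 3. The groups overlapped, and the difference was -0.05 ± 0.08 (limma adjusted p = 0.724; 95% interval -0.25 to 0.14). DRIP2, also known as BMI1A, had levels of 3.64, 3.78 and 3.76 in heat arrays 1, 2 and 3, against 4.01, 3.84 and 3.65 in control arrays 1, 2 and 3. Here too the groups overlapped, and the difference was -0.11 ± 0.11 (adjusted p = 0.565; 95% interval -0.38 to 0.16). The lower ends of these intervals stand for heat levels of 0.843 times control for DRIP1 and 0.770 times control for DRIP2. All values of both genes were below the array medians. Bacillus scaling moved the median change of all probe sets to -0.49, and under it DRIP1 was at -0.55 (adjusted p = 0.0404) and DRIP2 at -0.61 (adjusted p = 0.0262), near that median shift. With the same scaling and each probe set's own spread, neither passed (adjusted p = 0.0979 for DRIP1 and 0.0994 for DRIP2), while 2464 of 22746 probe sets were lower.

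NF-YC10, the nuclear factor Y subunit also called DPB3-1, had levels of 5.80, 6.29 and 6.11 in heat arrays 1, 2 and 3, against 6.03, 6.004 and 6.09 in control arrays 1, 2 and 3. The control arrays lay inside the range of the heat arrays, and heat array 1 was the lowest of all 6. The difference was 0.03 ± 0.13 (limma adjusted p = 0.918; 95% interval -0.29 to 0.34). Only 11.1% of probe sets varied as much or more among the heat arrays, while 90.5% did so among the control arrays.

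**Figure D3:**
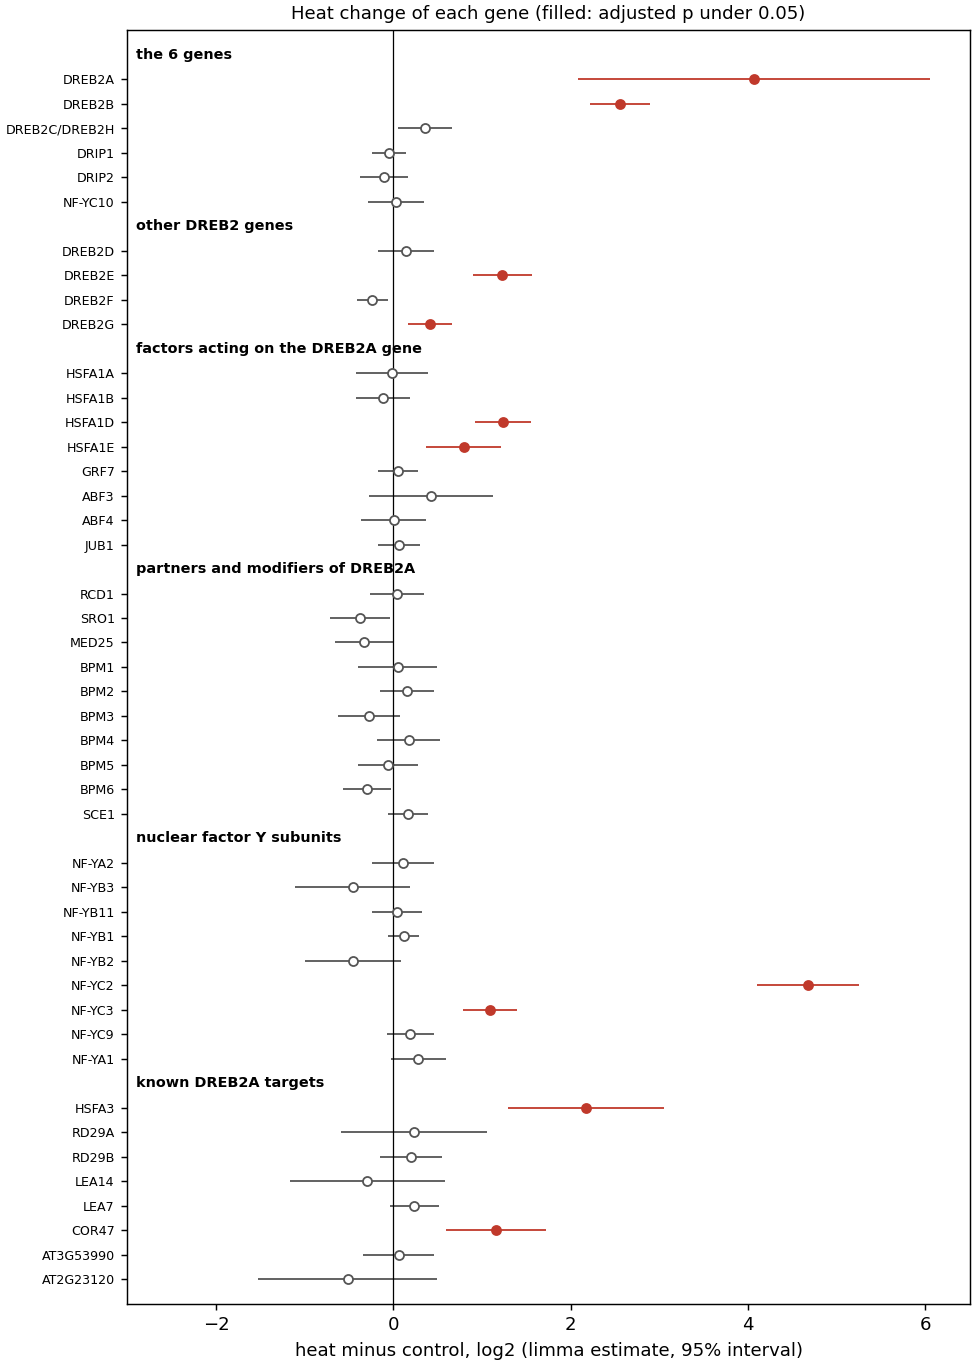
Heat minus control change on the log2 scale with its 95% limma interval for the 6 genes and for 39 related genes in 5 lists. The lists hold relatives as well as known partners, so a listed gene need not act with DREB2A. Filled points mark an adjusted p under 0.05. NF-YC2 and DREB2A have the largest changes, 4.68 and 4.07, and none of the listed partners and modifiers of DREB2A is filled.

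Genes related to the 6 were described through 5 lists, with 39 genes measured by a probe set of their own. Of these, 8 were higher, 0 lower and 31 not called, beside 7.82% of all probe sets higher and 11.5% lower. With the labelled age as a covariate only NF-YC2 among these 8 stayed called, and with each probe set's own spread DREB2E, HSFA1D, NF-YC2 and NF-YC3 did. Over all probe sets, 1778 higher became 359 and 971 in these settings. At an unadjusted p under 0.05 the counts were 8 higher and 4 lower, beside 14.1% and 18.1% of all probe sets. Bacillus scaling gave 11 of the 39 lower at the adjusted threshold, beside 42.5% of all probe sets. These were DREB2F, HSFA1B, SRO1, MED25, BPM3, BPM5, BPM6, NF-YB2, NF-YB3, LEA14 and AT2G23120. With that scaling and each probe set's own spread, only DREB2F stayed lower, beside 2464 of 22746 probe sets. Among other genes of the DREB2 subfamily, 2 of 4 measured were higher and 0 lower, beside 7.82% and 11.5% of all probe sets. The subfamily median change was 0.28, against 0.02 over all probe sets. DREB2E (AT2G38340) was at 4.15, 4.47 and 4.58 in heat arrays 1, 2 and 3, against 3.01, 3.34 and 3.17 in control arrays 1, 2 and 3. Its groups did not overlap, and it rose by 1.23 ± 0.14 (adjusted p = 0.00169). Its control arrays and heat array 1 were below the array medians, as were all arrays for DREB2F and DREB2G. DREB2G (AT5G18450) rose by 0.41 ± 0.10 (adjusted p = 0.0345), though not after removal of any single array (highest adjusted p = 0.0972), and Bacillus scaling put it at -0.09. DREB2D (0.14, adjusted p = 0.519) did not pass. DREB2F, whose groups did not overlap, was at -0.24 and did not pass (adjusted p = 0.0662), but passed as lower with its own spread (adjusted p = 0.0260) and after Bacillus scaling (-0.74, adjusted p = 0.00623).

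Of 8 measured factors known to act on the DREB2A gene, 2 were higher and 0 lower, with a median of 0.06. Over all probe sets, 7.82% were higher and 11.5% lower. The class A1 heat shock factors start the heat response and bind the DREB2A promoter. HSFA1D (AT1G32330) was at 5.32, 5.15 and 5.57 in heat arrays 1, 2 and 3, against 4.08, 4.27 and 3.99 in control arrays 1, 2 and 3. The groups lay apart by more than the spread within either, and the rise was 1.24 ± 0.13 (adjusted p = 0.00129). HSFA1E rose by 0.79 ± 0.18 (adjusted p = 0.0232), but missed the threshold when control array 1, control array 2 or heat array 1 was removed (highest adjusted p = 0.0785), and was at 0.29 after Bacillus scaling (adjusted p = 0.270). HSFA1A (-0.02) and HSFA1B (-0.11) did not pass, nor did GRF7 (0.05), a repressor of DREB2A in unstressed plants. The abscisic acid response factors ABF3 (0.43) and ABF4 (0.00) and the NAC factor gene JUB1 (0.06) did not pass either, and ABF2 had no probe set assigned to it. Without control array 2, ABF3 was at 0.78 and passed as higher (adjusted p = 0.0200). All values of HSFA1A, GRF7 and JUB1 were below the array medians, as were the control values of HSFA1D and HSFA1E.

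Genes for proteins known to bind, modify or degrade DREB2A other than the DRIP ligases gave 0 higher and 0 lower of 10 by limma. The shares of all probe sets were 7.82% and 11.5%, and the median of the list was -0.01. At an unadjusted p under 0.05 the counts were 0 higher and 3 lower, beside 14.1% and 18.1% of all probe sets. Changes of the 10 genes ran from -0.38 in SRO1 to 0.17 in BPM4. The BPM proteins are substrate adaptors of a CUL3-type ubiquitin ligase that also target DREB2A. RNA of all 6 BPM genes was measured and none passed. RCD1, a nuclear protein that binds DREB2A, was at 8.34, 8.59 and 8.50 in heat arrays 1, 2 and 3, against 8.21, 8.51 and 8.60 in control arrays 1, 2 and 3. Its groups overlapped, and the difference was 0.04 ± 0.13 (adjusted p = 0.866). MED25, the Mediator subunit that binds DREB2A, differed by -0.33 ± 0.14 (adjusted p = 0.149), and SCE1, the SUMO-conjugating enzyme, by 0.16 ± 0.09 (adjusted p = 0.290). Without control array 3, BPM4 passed as higher and BPM6 as lower, and without heat array 2, SRO1 passed as lower. After Bacillus scaling 5 of the 10 were lower, beside 42.5% of all probe sets. With that scaling and each probe set's own spread 0 were lower, beside 2464 of 22746 probe sets.

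Nuclear factor Y is a complex of A, B and C subunits at CCAAT promoter boxes. Of 9 subunits measured beside NF-YC10, 2 were higher and 0 lower, against 7.82% and 11.5% of all probe sets, with a median of 0.12. NF-YC2 (AT1G56170) was at 9.01, 9.84 and 8.99 in heat arrays 1, 2 and 3, against 4.41, 4.70 and 4.69 in control arrays 1, 2 and 3. All control arrays were low and alike, all heat arrays were high, and the rise was 4.68 ± 0.24 (adjusted p = 4.95e-05), or 25.6-fold. It was called in each of 17 alternative settings, with changes of 4.17 to 4.82. NF-YC3 (AT1G54830) rose by 1.09 ± 0.13 (adjusted p = 0.00187). The subunits known to join NF-YC10 beside DREB2A, NF-YA2 (0.10, adjusted p = 0.681) and NF-YB3 (-0.46, adjusted p = 0.30), did not pass. NF-YC1 and NF-YC4 share a probe set and were left out of the counts.

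Of 8 known DREB2A targets, 2 were higher and 0 lower, beside 7.82% and 11.5% of all probe sets, with a median of 0.21. HSFA3 (AT5G03720) was at 7.26, 7.39 and 7.81 in heat arrays 1, 2 and 3, against 4.76, 4.998 and 6.17 in control arrays 1, 2 and 3. Control array 3 was the highest of its group, as it was for DREB2A, and the groups did not overlap. HSFA3 rose by 2.17 ± 0.37 (adjusted p = 0.00852), or 4.51-fold, and was at 0.70 with the labelled age as a covariate (adjusted p = 0.537). COR47 (AT1G20440), a dehydrin gene also under the cold-responsive CBF factors, rose by 1.16 ± 0.24 (adjusted p = 0.0173), but missed the threshold when control array 2 or any heat array was removed (highest adjusted p = 0.0605). The classic drought markers RD29A (0.23, adjusted p = 0.699) and RD29B (0.20, adjusted p = 0.413) did not pass. RD29A was highest in heat array 2 (8.99, against 7.53 and 8.00 in heat arrays 1 and 3), and its difference was -0.18 without that array and 0.55 without heat array 1, neither called. LEA14, a late embryogenesis abundant protein gene, was at 8.91, 9.43 and 8.86 in heat arrays 1, 2 and 3, against 8.56, 9.48 and 10.02 in control arrays 1, 2 and 3, with groups that overlapped (-0.29, adjusted p = 0.641).

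For each of the 6 genes the nearest patterns among the genes of the array were found by the root mean square difference of log2 values over the 6 arrays, each gene centred on its own mean. The nearest to DREB2A were FBS1 (AT1G61340), ASG1 (AT2G24100) and the heat shock factor gene HSFB2A (AT5G62020), with differences of 0.55, 0.59 and 0.62. FBS1, a stress-induced F-box gene, was at 10.47, 10.30 and 10.52 in heat arrays 1, 2 and 3, against 4.52, 7.71 and 9.22 in control arrays 1, 2 and 3. FBS1 did not pass (3.28, limma adjusted p = 0.0832), while ASG1 rose by 3.93 (adjusted p = 0.00424) and HSFB2A by 3.66 (adjusted p = 0.00212). These genes were chosen for their likeness to DREB2A on these same arrays. Like DREB2A, all 3 rose from control array 1 to 2 to 3, which is also the order of the labelled ages. That order and the evenness among heat arrays therefore follow largely from the choice.

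**Figure D4:**
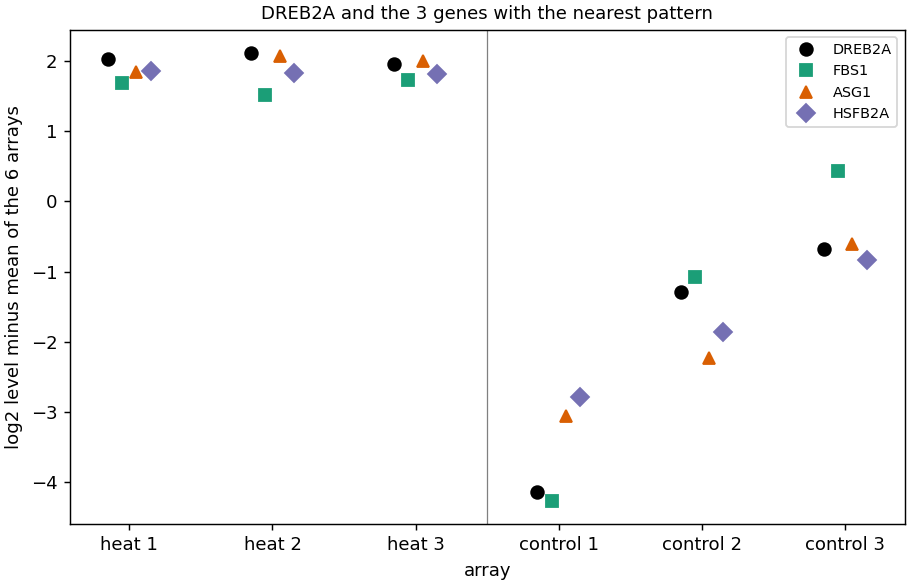
Log2 level minus the mean of the 6 arrays for DREB2A and the 3 genes with the smallest root mean square difference from it, FBS1, ASG1 and HSFB2A, with heat arrays to the left of control arrays. All 4 genes lie close together on the heat arrays, and on the control arrays each is lowest on array 1. The likeness follows largely from choosing the 3 genes by their pattern.

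The patterns nearest to DREB2B were matched more closely, with differences of 0.10 for AT3G57810, 0.12 for ARL2 (AT1G59980) and 0.12 for AT5G03030, whose changes were 2.66, 2.46 and 2.39. Nearest to the shared probe set of DREB2C and DREB2H were AT2G27730, GER2 and AT3G22850, at 0.04 to 0.05. For DRIP1 they were VAP27-1, AT5G07230 and AT5G50120, for DRIP2 HIRA, ACR1 and AT5G08210, and for NF-YC10 AT2G41830, PUP4 and EB1B, at 0.02 to 0.04.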

How the data were processed

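RNA of 6 seedling samples was measured on 1 Affymetrix array each. The deposited value table holds log2 levels made with RMA, per the submitters' processing notes; its version is not given in the sources used here. RMA sets all arrays to the same intensity distribution, so a change in total messenger RNA would not show. The authors' annotated table repeats these levels (136860 of 136860 cells equal) and adds, for each replicate number, the linear ratio of the control to the heat array. Values were used as deposited. Arrays give no read depth; their number limits the precision.

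Of 22810 probe sets, 64 controls were left out. Probe sets were tied to loci through the gene identifiers of the authors' table and the RefSeq gene table of TAIR10.1; 20540 of 20661 probe sets naming 1 gene matched. The highest-mean probe set stood for a gene. Heat was compared with control by limma 3.58.1 in R 4.3.3 (lmFit, eBayes, group only, 2-sided) over 22746 probe sets, with Benjamini-Hochberg adjustment, called at an adjusted p under 0.05 with no fold minimum. The fit was also run on simulated data with known changes, independent noise and the same spread in both groups. Such data do not cover a gene like DREB2A, with an SD of 1.84 in control and 0.08 in heat. Pair differences used exact 2-sided permutation (scipy 1.17.1). The labels do not say whether samples came from separate cultures, so p-values measure only the spread between these samples. Replicate numbers were not taken as pairs, since they are not stated to mark any. Same-numbered arrays had correlations of deviations of 0.04, 0.19 and -0.08, and arrays of unlike number -0.15 to 0.16. Deviations within a group depend on each other, so these values cannot decide on pairing.

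The members, the lists, the tests and the naming rule were chosen with earlier results of these data known. The rule named the 6 genes, HSFA1A, HSFA1B, HSFA1D, HSFA1E, HSFA3, up to 4 called genes per list and the 3 nearest patterns per gene; other list genes were named after their values were seen. Alternatives were other scalings (quantile, median, the 24 Bacillus control probe sets), leaving out the dimmest 25%, other error models, array weights, a replicate block, labelled age and leaving out each array. Bacillus scaling with each probe set's own spread was added after seeing the data. No sequence was used here.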

Additional observations from a re-analysis of the deposited data

How the results depend on the processing

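DREB2B kept its call in all 17 alternatives and DREB2A in 11, and DREB2A was higher after heat in all 17. The change of DREB2A was not called when each probe set's own spread set its error (4.07, adjusted p = 0.104), with the labelled age (1.53), or after Bacillus scaling with each probe set's own spread (3.57), and then 1 of the 6 genes was higher. Over all 22746 probe sets these settings gave 971, 359 and 371 higher. With 1 array left out DREB2A ran from 3.02 to 4.74 and 1 to 2 genes were higher, beside 1035 to 1774 of all probe sets. Bacillus scaling moved the median change of all probe sets to -0.49 and median centring to 0.12. Under the first, 2 genes were lower, DRIP1 (-0.55) and DRIP2 (-0.61), beside 42.5% of all probe sets. With each probe set's own spread 0 of the 6 genes were lower, beside 2464 of 22746 probe sets. The shared DREB2C and DREB2H probe set (-0.14) and NF-YC10 (-0.48) turned sign with either spread, not called. Under the second, DREB2C and DREB2H passed at 0.46 and DRIP1 was at 0.052. With the labelled age DRIP1 was at 0.11, DRIP2 at 0.073 and NF-YC10 at -0.25, and with array weights NF-YC10 was at -0.022, none called. Leaving out 1 array put NF-YC10 between -0.083 and 0.16 and DRIP1 minus DRIP2 between -0.014 and 0.15. Of the 39 list genes, 8 were higher, beside 1778 of 22746 probe sets. That became 4 with each probe set's own spread (971 of all), 1 with the labelled age (359) and 2 after Bacillus scaling with own spread (371). With 1 array left out it was 5 to 8 (1035 to 1774 of all). At first 0 were lower, beside 2614 of all probe sets. That became 11 after Bacillus scaling (9667 of all). It was 1 with own spread under either scaling (1178 of all as deposited, 2464 after Bacillus scaling). With 1 array left out it was 0 to 1 (1473 to 2807 of all). The cause of these changes was not tested.

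The replicate block changed no call among the 6 genes (DREB2A 4.07, adjusted p = 0.0256; DREB2B 2.56, adjusted p = 0.00154) and ended that of DREB2G (adjusted p = 0.0642); over all probe sets it gave 1529 higher and 2266 lower, against 1778 and 2614. Over all probe sets, labelled age gave 359 higher and 227 lower, own spread 971 and 1178, and Bacillus scaling 643 and 9667. Bacillus scaling with own spread gave 371 and 2464, median centring 3054 and 2126, and leaving out 1 array 1035 to 1774 and 1473 to 2807. Other probe sets of the 6 genes could not be tried, since each has 1. Values below the array medians limit what can be said of DREB2C, DRIP1 and DRIP2, and of list genes such as DREB2E, DREB2F, DREB2G, HSFA1A, GRF7 and JUB1.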
